A study of Saccharomyces cerevisiae with 13 samples.

Results

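The genes described here are 36 nuclear genes of the yeast respiratory chain and ATP synthase, taken by their systematic names from the 6205 genes on the arrays. They are 4 genes of succinate dehydrogenase (complex II), 8 of the cytochrome bc1 complex (complex III), 2 of cytochrome c, 8 of cytochrome oxidase (complex IV), 2 NADH dehydrogenases, 11 of ATP synthase, and HAP4, a transcriptional activator of many of the others. They were grouped by function, and the rule that picked them uses no measured value, although earlier results of these data were known when they were chosen. All 36 passed the minimum number of measured values, and 1 value was missing among them (ATP17 at 110 min).

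Respiratory enzymes pass electrons from NADH and succinate through ubiquinone, complex III and cytochrome c to complex IV, which reduces oxygen. The proton gradient this builds drives ATP synthase. Budding yeast has no multi-subunit complex I and uses single-polypeptide NADH dehydrogenases instead. The yeast ferments when glucose is plentiful, and glucose represses many respiratory genes. Hap4 is the glucose-regulated subunit of the Hap2/3/4/5 complex, which binds CCAAT sequences and activates respiratory genes. The core subunits encoded by mitochondrial DNA were not analysed here.

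The samples were 13 time points of 1 culture of budding yeast, strain W303, labelled yox1 yhp1. YOX1 and YHP1 encode homeodomain repressors of genes expressed around the M/G1 boundary. The cells had been held in alpha factor, a mating pheromone that arrests cells in G1, and were then released into the rich glucose medium YEPD and collected from 0 to 120 min at intervals of 10 min. RNA of each time point carried Cy5 and was hybridised with Cy3-labelled RNA of an asynchronous wild-type culture that had reached an OD of 0.6 after a night in YEPD. There were no replicates and no dye swap, and the sources used here do not name the yox1 and yhp1 alleles.

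Every value below is a log10 ratio of the time point over the reference, so 0 means equal to the reference, and it sets no level of one gene against that of another. Log base 10 was inferred from the values, and all folds rest on it. YHP1 was below 0 on 13 of 13 arrays, from -0.50 at 70 min to -0.12 at 120 min, with a fitted level 1.88-fold below the reference. YOX1 was below 0 on 10 of 13 and ran from -0.53 at 60 min to 0.12 at 80 min, with a significant cycle (adjusted p = 0.00775 with limma). These YOX1 values go against a complete loss of its signal in the cells labelled yox1 yhp1. Whether the YHP1 signal was background was not tested. The period of the cycle was taken as 62 min, the best fit to the mean of 40 G1/S genes. Of these, 39 could be fitted, with a median peak-to-trough ratio of 2.79-fold. The 35 with a significant cycle had a median peak 19.3 min after release. SDs of the arrays over all genes ran from 0.0942 to 0.173, and the median scatter around the fitted curve was 0.0405 for the 36 respiratory genes and 0.0436 for all genes. Genotype, synchrony, growth history and dye differ together between sample and reference and cannot be told apart. In these bulk samples, fewer expressing cells and less RNA per cell cannot be told apart either.

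The question asked first was whether the respiratory genes changed with the cell cycle. A cycle was found for 18 of the 36 (50.0%) in limma's F test of a 62 min cosine and sine (Benjamini-Hochberg adjusted p under 0.05 over 6151 genes), where 15.0% of all genes were. Succinate dehydrogenase and ATP synthase held most of them, with 3 of 4 and 9 of 11 genes, while complex III had 3 of 8, complex IV 1 of 8 and cytochrome c 0 of 2. HAP4 and the NADH dehydrogenase gene NDE1 were the others. The median peak-to-trough ratio was 1.35-fold over the 36 genes and 1.19-fold over all genes. Apart from NDE1, the 16 periodic subunit genes peaked between 10.1 and 22.3 min after release (median 15.3 min), with ratios from 1.33- to 2.16-fold. The count was 9 without the 50 min array (7.90% of all genes), 10 without the 40 min array (8.52%), 10 with no linear time term (15.2%) and 2 when a second harmonic was added (3.45%). SDH1 and QCR2 were the genes called under all 26 alternatives.

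The course can also be read from the median-centred values, which are the values that were fitted and so no separate evidence. The mean of the 35 subunit genes was 0.021 at 0 min, 0.12 at 10 min and 0.092 at 20 min, and fell to 0.0057 at 50 min. It then stood at 0.089 at 60 min, 0.14 at 70 min, 0.12 at 80 min and 0.13 at 90 min, before 0.086 at 100 min, 0.070 at 110 min and 0.099 at 120 min. The mean was thus high at 10 to 20 min, low at 50 min and high again from 60 to 90 min. In the first cycle (10 to 60 min), 22 of 35 subunits had their highest value at 10 or 20 min and 28 their lowest at 30, 40 or 50 min. In the second (70 to 120 min), 30 of 35 had their highest at 70, 80 or 90 min and 29 their lowest at 100, 110 or 120 min. The range was smaller in the second cycle for 28 of 35 subunits, and the mean was higher for 31. Pearson r between the cycles, pairing arrays 60 min apart, was above 0.5 for 18 of 35. Of the periodic subunits, COX4 (r = 0.246), ATP3 (r = 0.338), ATP7 (r = 0.371) and SDH2 (r = 0.407) were below that, and the others above it. The time windows differ between the cycles, so the counts of the first and second are not comparable. Shares over all genes were not counted for any of these, so they only describe the 35 subunits.

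**Figure D1:**
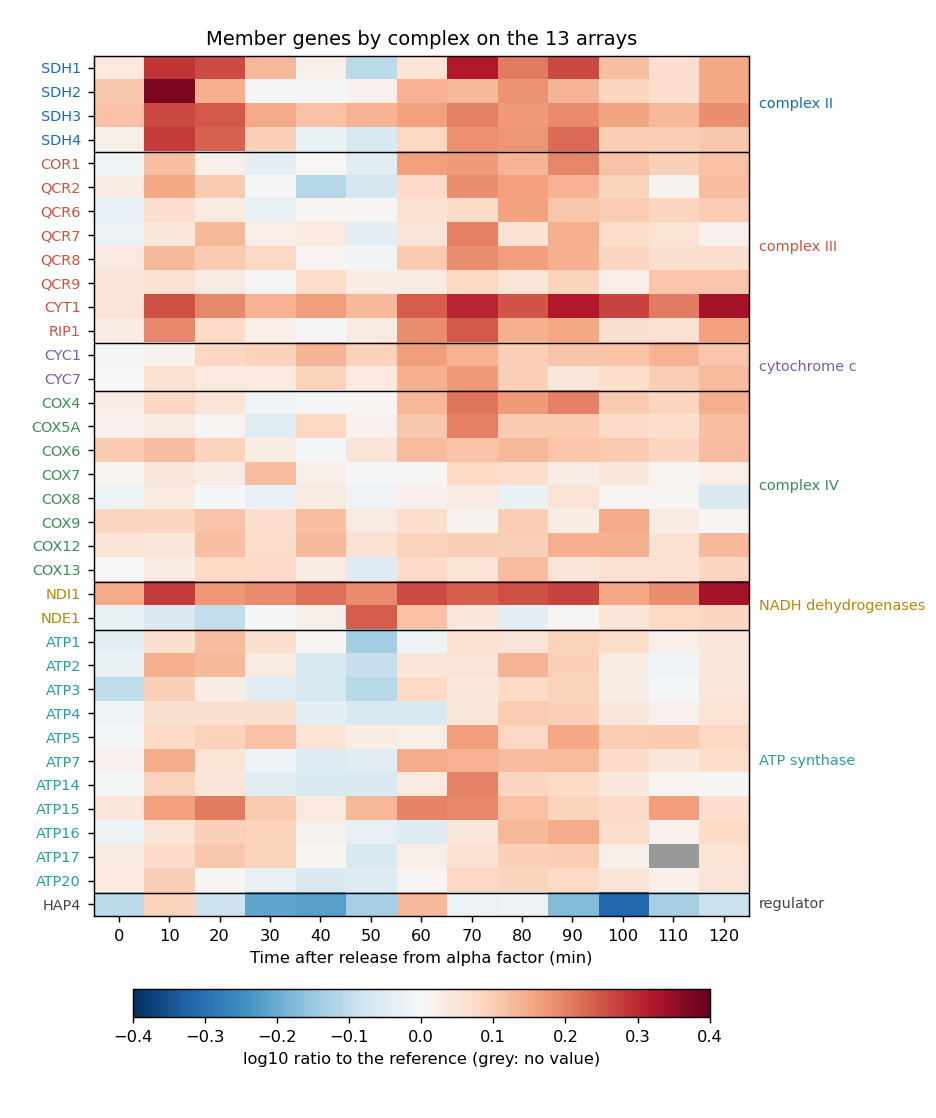
Heat map of the log10 ratio to the reference for the 36 genes (rows, ordered by complex) at the 13 time points in minutes after release (columns), with colour giving the ratio. Most genes of succinate dehydrogenase and complex III are high at 10 and 70 min and near the reference at 50 min, and HAP4 is below the reference on 11 of 13 arrays.

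Complex II oxidises succinate in both the tricarboxylic acid cycle and the respiratory chain, and its genes cycled most widely. SDH1 (YKL148C), the flavoprotein subunit, read 0.038, 0.28, 0.26, 0.13, 0.021, -0.11, 0.052, 0.32, 0.21, 0.26, 0.12, 0.066 and 0.16 from 0 to 120 min. It was high at 10 to 20 min and at 70 to 90 min, and below the reference at 50 min alone. In the fit it peaked 16.5 ± 1.29 min (SE) after release and spanned 2.16-fold from peak to trough (adjusted p = 0.00216). SDH4 (YDR178W), a membrane anchor subunit, had a similar shape, peaking at 16.4 ± 1.53 min and spanning 1.84-fold (adjusted p = 0.00678). SDH2 (YLL041C), the iron-sulfur subunit, reached its highest value of 0.38 at 10 min and 0.18 at 80 min in the second cycle. Its call (1.66-fold, adjusted p = 0.0437) was lost in 14 of 26 alternatives. SDH3 (YKL141W), the other anchor subunit, stayed between 0.12 and 0.26 on every array and did not pass (1.25-fold, adjusted p = 0.119). The mean of the 4 genes spanned 2.02-fold in the first cycle and 1.31-fold in the second.

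Complex III transfers electrons from ubiquinol to cytochrome c. Its core subunit gene QCR2 (YPR191W) read 0.031, 0.15, 0.10, -0.0092, -0.11, -0.067, 0.078, 0.19, 0.16, 0.14, 0.092, 0.015 and 0.12 from 0 to 120 min. Values were thus below the reference at 30, 40 and 50 min and not again afterwards. The fitted peak came at 13.1 ± 1.14 min and stood 1.79-fold over the trough (adjusted p = 0.00109). RIP1 (YEL024W), the Rieske iron-sulfur protein, had a ratio of 1.58-fold (peak 10.1 ± 1.63 min, adjusted p = 0.00812), and the small subunit QCR8 (YJL166W) one of 1.44-fold (peak 15.6 ± 1.56 min, adjusted p = 0.00771). The other core subunit, COR1 (YBL045C), had 1.41-fold (adjusted p = 0.0742), and CYT1 (YOR065W), the heme-bearing cytochrome c1, 1.35-fold (adjusted p = 0.0838). The small subunits QCR6 (YFR033C, 1.24-fold), QCR7 (YDR529C, 1.35-fold) and QCR9 (YGR183C, 1.07-fold) did not pass either. QCR9 remained above the reference on all 13 arrays, between 0.0038 and 0.11.

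Cytochrome c carries electrons from complex III to complex IV and has 2 isoforms in yeast, of which CYC7 is known to be favoured when oxygen is low. CYC1 (YJR048W) read -0.0075, 0.013, 0.083, 0.092, 0.14, 0.091, 0.17, 0.14, 0.094, 0.11, 0.11, 0.14 and 0.11 from 0 to 120 min. It was lowest at 0 and 10 min, and 10 min is where the mean of all subunits was high. Its fitted cycle was 1.06-fold (adjusted p = 0.835). CYC7 (YEL039C) was also lowest at 0 min, at -0.0027, and highest at 70 min, at 0.17, with a cycle of 1.15-fold (adjusted p = 0.388).

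Complex IV reduces oxygen to water, and 7 of its 8 genes missed the threshold for a cycle. COX4 (YGL187C), which passed it, read 0.030, 0.082, 0.051, -0.018, -0.0062, 0.0047, 0.13, 0.21, 0.17, 0.20, 0.10, 0.084 and 0.14 from 0 to 120 min. Its values were near 0 from 30 to 50 min and higher in the second cycle than in the first. The fitted peak, at 12.3 ± 1.78 min, was 1.46-fold over the trough (adjusted p = 0.0145). In the values, the highest point of the first cycle was at 60 min. The COX4 call was kept in 23 of 26 alternatives. It was lost with the shorter period, with a second harmonic and with no linear time term (adjusted p = 0.417 in the same F test). COX6 (YHR051W) lay just outside the threshold, at 1.26-fold (adjusted p = 0.0549). COX5A (YNL052W), the aerobic isoform of subunit V, had 1.23-fold (adjusted p = 0.235), and COX13 (YGL191W) 1.20-fold (adjusted p = 0.193). The small subunit genes COX7 (YMR256C), COX8 (YLR395C), COX9 (YDL067C) and COX12 (YLR038C) had ratios between 1.04- and 1.16-fold. COX8 stayed within -0.059 and 0.051 on all arrays, about the size of the scatter. The mean of the 8 genes spanned 1.17-fold in the first cycle and 1.12-fold in the second.

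The NADH dehydrogenases feed electrons to ubiquinone from either side of the inner membrane, Ndi1 from the matrix and Nde1 from the intermembrane side. NDE1 (YMR145C) read -0.028, -0.057, -0.10, -0.0063, 0.022, 0.24, 0.12, 0.044, -0.039, 0.0061, 0.048, 0.080 and 0.087 from 0 to 120 min. It was highest at 50 min, where the mean of the 35 subunits was lowest. The fitted peak was at 50.7 ± 2.49 min and the ratio 1.5-fold (adjusted p = 0.0463), a call that was lost in 13 of 26 alternatives. NDI1 (YML120C) was above the reference on all 13 arrays, from 0.15 at 0 min to 0.33 at 120 min, with a cycle of 1.22-fold (adjusted p = 0.271).

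**Figure D2:**
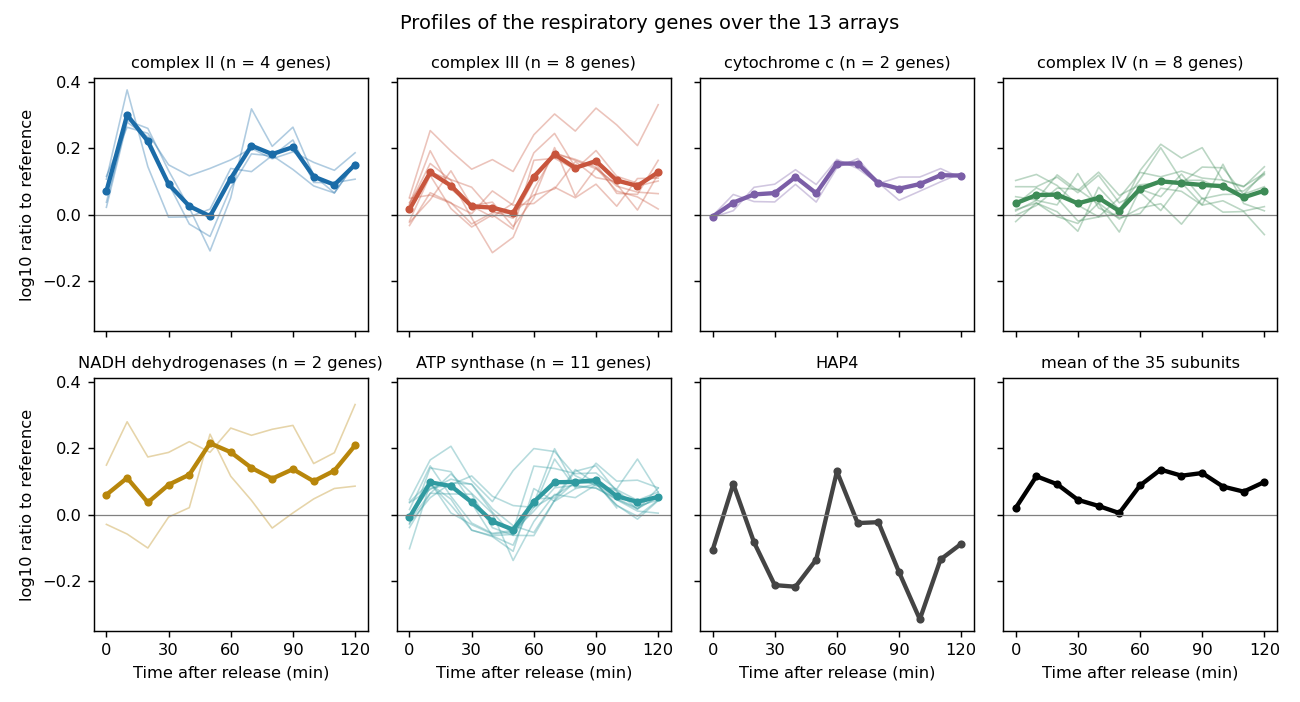
Log10 ratio to the reference (vertical axes) against minutes after release (horizontal axes), 1 panel per complex, with 1 thin line per gene and a thick line for the mean. The complex II mean falls from 0.30 at 10 min to -0.0039 at 50 min and returns to 0.21 at 70 min, whereas the complex IV mean stays between 0.012 and 0.10.

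ATP synthase consists of a catalytic F1 head, a stator and a membrane part. In F1, the beta subunit gene ATP2 (YJR121W) read -0.028, 0.14, 0.13, 0.036, -0.063, -0.091, 0.048, 0.051, 0.14, 0.094, 0.030, -0.013 and 0.043 from 0 to 120 min. It was highest at 10 and 80 min, and after each of these it fell below the reference, at 40 to 50 min and at 110 min. Its fitted cycle spanned 1.59-fold and peaked at 16.4 ± 1.45 min (adjusted p = 0.00476). ATP16 (YDL004W), the delta subunit of the F1 central stalk, had 1.42-fold and the latest peak of the 16 genes, at 22.3 ± 1.75 min (adjusted p = 0.00678). The alpha subunit gene ATP1 (YBL099W, 1.42-fold, adjusted p = 0.0321) and the gamma subunit gene ATP3 (YBR039W, 1.44-fold, adjusted p = 0.0390) were also called. ATP15 (YPL271W), the epsilon subunit, was above the reference on all 13 arrays and not called (1.20-fold, adjusted p = 0.432).

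In the stator, ATP4 (YPL078C, 1.37-fold), ATP7 (YKL016C, 1.5-fold) and ATP14 (YLR295C, 1.51-fold) were periodic, with adjusted p of 0.0160, 0.0203 and 0.0188. ATP5 (YDR298C), which joins the stator to the F1 head, was not called (1.24-fold, adjusted p = 0.112). In the membrane part, ATP17 (YDR377W, 1.34-fold, adjusted p = 0.0271) and ATP20 (YPR020W, 1.33-fold, adjusted p = 0.0423) were called. The mean of the 11 genes spanned 1.39-fold in the first cycle and 1.16-fold in the second. Calls of ATP3 and ATP20 were lost in 14 and 15 of 26 alternatives, and those of ATP2 and ATP16 only when a second harmonic was added. The call of ATP1 was kept in 17 of 26 alternatives and that of ATP17 in 19 of 25. ATP7 and ATP14 each kept theirs in 21 of 26, and ATP4 in 22 of 26.

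HAP4 (YKL109W) read -0.11, 0.093, -0.082, -0.21, -0.22, -0.13, 0.13, -0.024, -0.022, -0.17, -0.31, -0.13 and -0.087 from 0 to 120 min. It was above the reference at 10 and 60 min and below it on the other 11 arrays. Its fitted cycle spanned 1.92-fold and peaked at 6.46 ± 1.86 min (adjusted p = 0.0108). The difference in peak time between HAP4 and the subunits was not tested. Across the 13 arrays, HAP4 correlated with the mean of the subunits at r = 0.404, a description of time points from 1 culture.

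**Figure D3:**
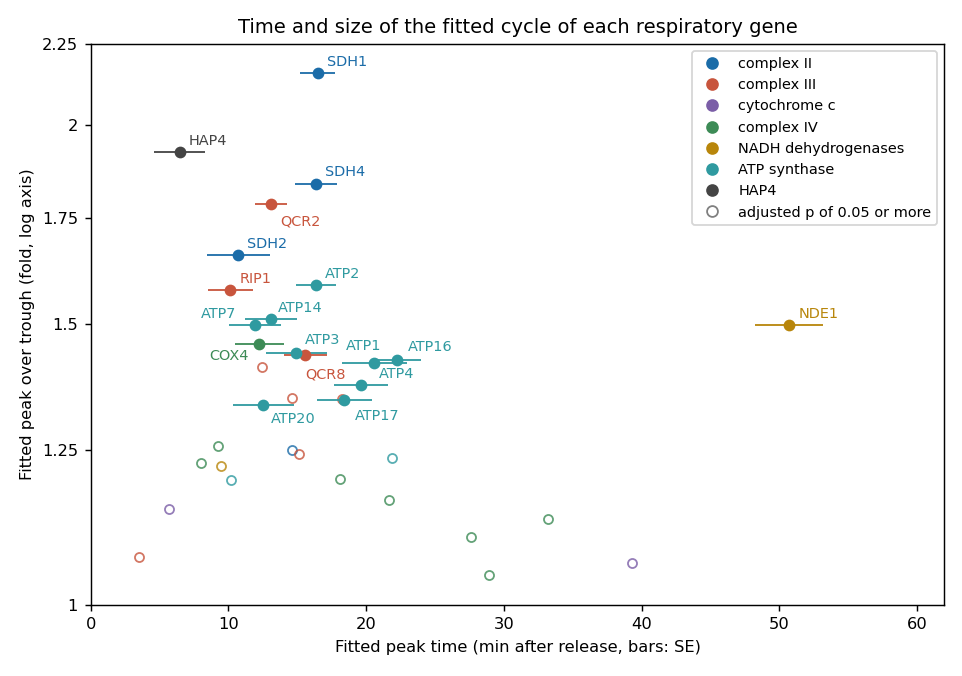
Fitted peak time in minutes after release (horizontal axis, bars give the SE) against the fitted peak-to-trough ratio (vertical axis, log scale) for each of the 36 genes, coloured by complex and open where the adjusted p was 0.05 or more. The called subunits lie between 10.1 and 22.3 min apart from NDE1 at 50.7 min, and HAP4 lies at 6.46 min.

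The next question was how the genes stood against the asynchronous wild-type reference. At mid course, 32 of the 36 were above the reference by the adjusted p alone, where 33.6% of all genes were, and HAP4 was the 1 gene below it, where 32.0% of all genes were. Differences were small: the median was 0.0684 (1.17-fold) for the 36 genes and 0.0027 for all genes. With no dye swap, a dye effect particular to a gene cannot be told apart from its level. With a minimum of 1.5-fold, 2 of 36 were above the reference, where 2.67% of all genes were. These were NDI1 at 0.22 ± 0.013 (SE, 1.67-fold, adjusted p = 7.66e-09) and CYT1 at 0.22 ± 0.013 (1.66-fold, adjusted p = 6.62e-09). SDH3 lay just below that minimum, at 0.17 ± 0.011 (1.49-fold). HAP4 lay 1.27-fold under the reference, at -0.10 ± 0.018 (adjusted p = 0.000227).

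By complex, the median was 0.13 for complex II, 0.074 for complex III, 0.088 for cytochrome c, 0.070 for complex IV and 0.041 for ATP synthase. COX8 (0.0040 ± 0.011, adjusted p = 0.760), ATP3 (0.013 ± 0.013, adjusted p = 0.378) and NDE1 (0.029 ± 0.015, adjusted p = 0.106) did not differ detectably from the reference. The number of genes above 0 varied with time, from 17 of 36 at 50 min to 35 of 36 at 10, 70, 90 and 100 min. Each array was centred on its median, so as many of all genes lie above 0 as below it. The count at 50 min was near that share. Of 20 other glucose-repressed genes, 17 were above the reference by the adjusted p alone and 1 below, with a median of 0.072. The part of glucose supply in the respiratory genes' levels was not tested.

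Over the course, 5 of 36 genes rose by the test of linear time, where 1.19% of all genes did. They were 4 genes of complex III and COX4. CYT1 read 0.053, 0.25, 0.19, 0.14, 0.17, 0.13, 0.24, 0.30, 0.25, 0.32, 0.27, 0.21 and 0.33 from 0 to 120 min. Its lowest value was thus at the start and its highest at the end. Its fitted rise over 120 min was 0.23 ± 0.044 (1.69-fold, adjusted p = 0.0231). COR1 rose 1.62-fold (0.21 ± 0.048, adjusted p = 0.0429), COX4 1.61-fold (0.21 ± 0.037, adjusted p = 0.0159), QCR2 1.48-fold (0.17 ± 0.036, adjusted p = 0.0313) and QCR6 1.47-fold (0.17 ± 0.032, adjusted p = 0.0229). Of 26 alternatives, the call of a rise was kept in 10 for COR1, 16 for QCR2, 20 for QCR6, 22 for CYT1 and 24 for COX4.

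The remaining genes did not pass, although 33 of the 36 estimates were above 0, with a median of 0.090 against -0.00017 for all genes. COX9 had the lowest estimate, at -0.056 ± 0.040 (adjusted p = 0.514). The complex III mean was 0.064 in the first cycle and 0.13 in the second, and that of ATP synthase 0.033 and 0.075. Centring the arrays on ribosomal protein genes instead of all genes moved the median trend of all genes by -0.12 on the log2 scale, and 29 of the 36 estimates were then above 0, with a median of 0.055 against -0.035. The count of 5 (73 over all genes) was 1 with that centring (27), 1 without the 90 min array (20), 2 without the 40 min array (21), 3 without the 0, 20, 30, 50 or 80 min array, and 0 when the cosine and sine were left out (16).

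**Figure D4:**
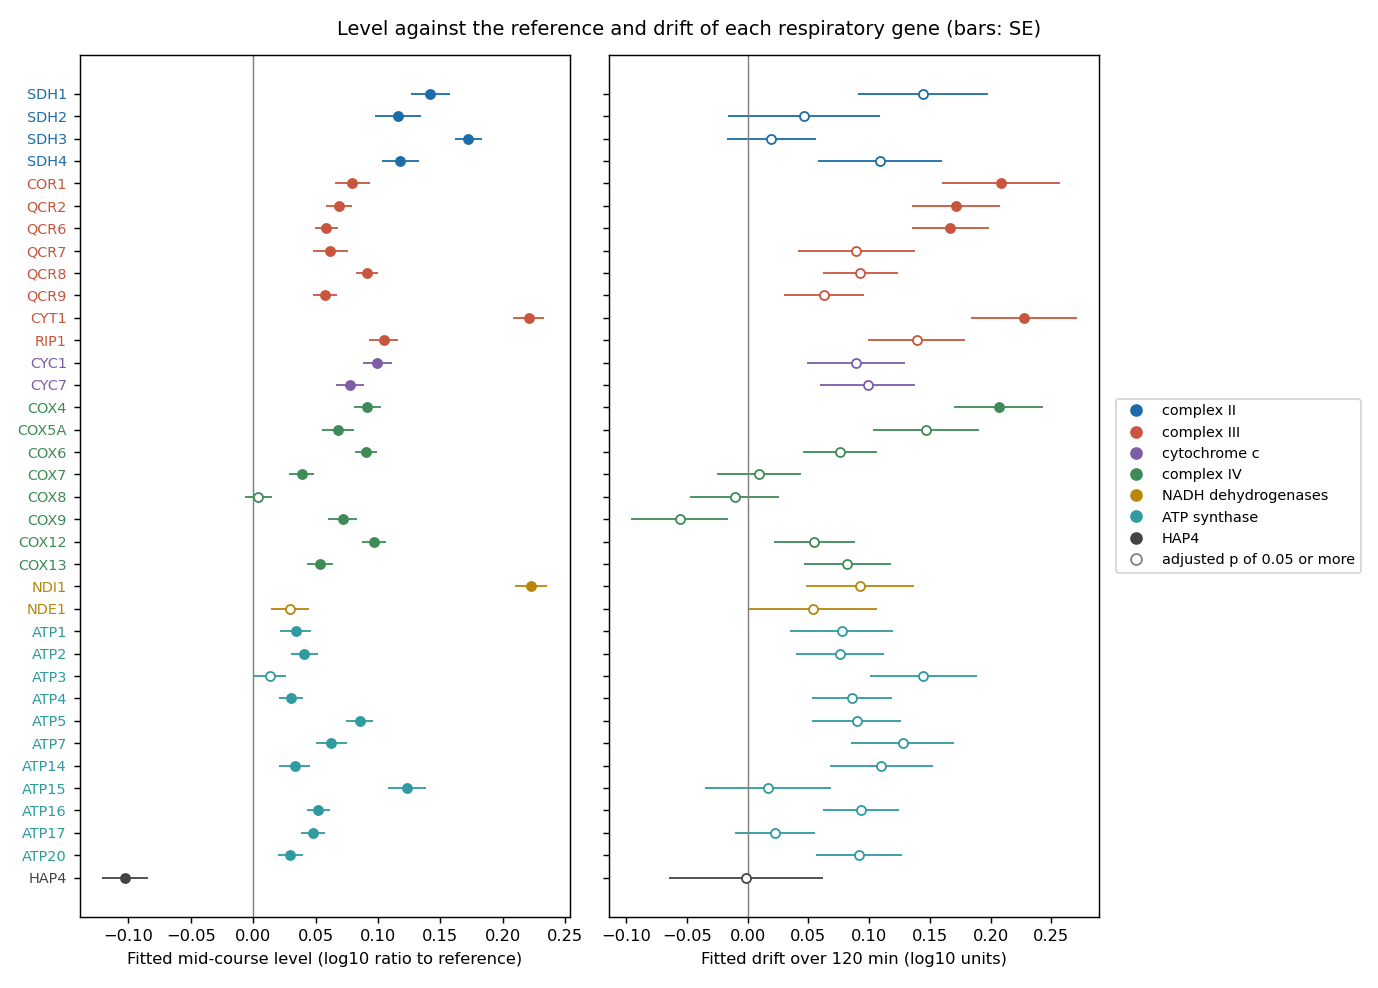
Fitted mid-course level as a log10 ratio to the reference (left) and fitted change over 120 min in log10 units (right) for each of the 36 genes, with bars giving the SE and open points an adjusted p of 0.05 or more. Level estimates are above 0 for all 35 subunits and below 0 for HAP4, and the 5 filled points on the right are COR1, QCR2, QCR6, CYT1 and COX4.

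The array of arrested cells at 0 min was compared with the curve through the other arrays. No respiratory gene was called in limma's test of that array (0 of 36, where 1.70% of 6109 genes were), and 8 of 36 had an unadjusted p under 0.05, where 11.6% of all genes did. The estimates lay below 0 for 34 of 36 genes (2892 of 6109 for all genes), with medians of -0.078 and 0.0045. That fit held no linear trend, so a rise over the course also puts the 0 min array below the curve. Such a rise and an effect of arrest were not told apart. With linear time included, the count called was again 0. CYT1 had the lowest, at -0.21 (adjusted p = 0.199). In the values, the mean of the 35 subunits was 0.021 at 0 min and 0.089 and 0.099 at 60 and 120 min. Of the 35 subunits, 32 were lower at 0 min than at 10 min. The share of all genes that were was not counted. Of the 20 other glucose-repressed genes, FBP1 had no estimate, 12 had estimates below 0 and 1 was called. The called gene was the high-affinity glucose transporter gene HXT6, at 2.74-fold below the curve (adjusted p = 0.0337). Its near-identical neighbour HXT7 was at 2.42-fold below (adjusted p = 0.0514). MIG1, a glucose repressor named here after its value was seen, was 1.83-fold below it (adjusted p = 0.0326).

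Genes that work beside these 36 were described from lists of other subunits, assembly factors, regulators and neighbouring pathways, to be read against the shares of all genes (15.0% periodic, 33.6% above and 32.0% below the reference by the adjusted p alone). Of 11 further subunits and regulators of the same complexes, none was periodic (0 in limma's test), 8 were above the reference and 2 below. COX5B, the low-oxygen isoform of subunit V, was at 0.13 ± 0.018, and INH1, the inhibitor of ATP hydrolysis by ATP synthase, at 0.11 ± 0.011. Factors that assemble the complexes cycled in few cases. Among 22 for complex IV, 1 was periodic, 7 (31.8%) were above and 3 below the reference, and the periodic one was MSS2 (1.31-fold, adjusted p = 0.0458). Among 21 for complexes II and III, cytochrome c and ATP synthase, 1 was periodic, 4 were above and 9 below. That one was SDH7, an assembly factor of succinate dehydrogenase, which peaked at 20.3 ± 2.23 min (1.44-fold, adjusted p = 0.0265). Of 12 regulators none was periodic, with 4 above and 4 below the reference, such as CAT8, an activator of genes for growth on non-fermentable carbon, at 0.11 ± 0.012, and ROX1, a repressor of hypoxic genes, at -0.12 ± 0.015.

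In the tricarboxylic acid cycle and pyruvate dehydrogenase, 17 of 19 genes were above the reference, 6 of them by at least 1.5-fold, and 2 were periodic. MDH1, mitochondrial malate dehydrogenase, peaked at 17.1 ± 1.65 min (1.82-fold, adjusted p = 0.00839). IDH1, a subunit of isocitrate dehydrogenase, peaked at 40.3 ± 1.70 min instead (1.67-fold, adjusted p = 0.00948). Of 14 carriers and porins, 8 were above the reference, 2 below and 2 periodic, namely the phosphate and copper carrier gene PIC2 (1.71-fold, peak 15.1 ± 2.22 min) and the dicarboxylate carrier gene DIC1 (1.37-fold, peak 30.2 ± 2.84 min). Of the 20 glucose-repressed genes, 6 were periodic. The widest cycles were those of HXT6 (3.59-fold, peak 17.6 ± 1.88 min) and HXT7 (3.38-fold, peak 18.1 ± 1.79 min), which are near-identical in sequence, so their signals may not be separate. ALD4, mitochondrial aldehyde dehydrogenase, had 2.85-fold, and HXK1, a hexokinase, 2.41-fold. No gene of these lists rose over the course by the test of linear time, where 1.19% of all genes did. At that share, lists of this size would hold few such genes or none.

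Within the 36 genes, the profile of ATP3 was closest to the mean of the other subunits (r = 0.930 over 13 arrays), followed by QCR8 and QCR2 (both r = 0.912). CYC1 (r = 0.170), COX9 (r = -0.212) and NDE1 (r = -0.425) were the least like it. Among 5674 genes with a value on every array, the 5 outside the set with the highest r to the mean of the 35 subunits were EMI2 (0.922), GRH1 (0.903), OM14 (0.898), OCH1 (0.892) and TPS3 (0.887). EMI2 (YDR516C) and GRH1 (YDR517W) lie next to each other in the genome. OM14 encodes a mitochondrial outer membrane protein, OCH1 a Golgi mannosyltransferase and TPS3 a subunit of the trehalose synthase complex. Their fitted peaks, which the choice by likeness largely sets, lay between 13.3 and 15.6 min, with ratios between 1.46- and 2.78-fold. These correlations describe points that share arrays and 1 culture.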

How the data were processed

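The series is 13 two-colour arrays of 1 time course. The values used are the log10 ratios that the authors deposited, sample (Cy5) over reference (Cy3), with the direction taken from the dyes per the labels. Base 10 is inferred: 18 values sit at a limit of exactly 2 in size and the largest other is 1.61. The sources used here give no background correction, normalisation or filter. Spot brightness is unknown, so the number of arrays limits the precision. Of 6217 rows, 12 control rows were left out, and 5704 of 6205 genes matched a reference table of names (R64). Values at the limits were set to missing, each array was centred on its median, and the 6151 genes measured on 10 or more of 13 arrays were tested.

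limma 3.58.1 (R 4.3.3, lmFit and eBayes) fitted each gene with a constant, a linear trend and 1 cycle (cosine plus sine) of 62 min, the best period from 50 to 80 min for the G1/S list. The 0 min array was tested in a fit with intercept, cosine and sine (6109 genes). P-values are two-sided, adjusted by Benjamini-Hochberg over all genes, with a threshold of 0.05. The level at mid course also needed 1.5-fold where stated. Each p-value reflects how far the arrays of 1 culture scatter about its curve; differences between cultures were not measured. The fits were tested on simulated data. The genes and lists were chosen with earlier results of these data known. Named genes are all 36; from each other list, up to 4 periodic genes with the widest cycle or, with none periodic, the 2 called genes farthest from the reference; and the 5 genes most like the mean of the subunits. Alternatives changed the period, the curve, the fit, the centring, the filters and the arrays used. All 7 mitochondrially encoded subunits in the lists were not analysed here, and sequences were not used here.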

Additional observations from a re-analysis of the deposited data

How the results depend on the processing

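Of the 18 periodic genes, 9 stayed periodic whichever array was left out (SDH1, SDH4, QCR2, QCR8, RIP1, COX4, ATP2, ATP16 and HAP4). The count of periodic genes was 2 with a second harmonic (3.45% of all genes), 10 without linear time (15.2%) and 7 when the period was shortened by 5 min (7.4%), and ran from 9 to 18 with 1 array left out. The robust fit called 26 of the 36 and 37.6% of all genes. With no minimum fold, 33 genes were away from the reference instead of 2, and 29 of these 33 were called under every alternative. The count of rising genes, with that over all genes in brackets, was 3 with a 60 min period (45), 1 with the shorter period (38), 3 with a second harmonic (27), 16 in the robust fit (402), 10 with array weights (152), 1 when centred on ribosomal protein genes (27) and 0 with no cosine and sine (16), and ran from 1 to 5 with 1 array left out. COX4 kept its rise whichever array was left out, the only 1 of the 5 to do so. With 1 of the 13 arrays left out, the rise was kept in 3 cases for COR1, 8 for QCR2, 10 for QCR6 and 11 for CYT1. At arrest, the robust fit called 5 genes instead of 0, and 622 of all genes instead of 104. No called level or trend of the 36 genes changed direction, while uncalled trends did with the ribosomal centring. The causes were not tested. No paired analysis was possible because each time point has 1 array. One culture, 13 arrays and an inferred log base limit all results.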
